A study of Mus musculus with 6 samples.

Results

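The noncoding host genes of small nucleolar RNAs (snoRNAs) were examined in RNA-seq of early LPre-B cells (the early stage of large pre-B cells), a dividing B lineage progenitor of the mouse bone marrow. The 10 genes listed were *Gas5*, *Zfas1*, *2410006H16Rik* (also called *Snhg29*), *Snhg1*, *Snhg3*, *Snhg5*, *Snhg6*, *Snhg8*, *Snhg12* and *Snhg15*, and 9 of them had a row among the 13426 genes of the deposited table. *Snhg3* had none. The 10 genes were chosen by name with differences between these groups already known for some of them, so the host differences below are a description and were not tested. The Ctrl mice were Upf1 Flox/Flox, Mb1 +/+, the cKO mice were Upf1 Flox/Flox, Mb1 Cre/+, and each group had 3 libraries. Both groups therefore carried the floxed *Upf1* allele, and the cKO mice in addition carried a Cre knocked into *Cd79a* (Mb1), which acts in the B lineage from its early stages and removes internal exons of *Upf1*, while the Ctrl mice had no Cre. Per the study's methods, the mice were age-matched adults of both sexes on a C57BL/6 background, and the cells were sorted as negative for other lineages and surface IgM, positive for B220 and CD43 among other markers, large by forward scatter and negative for CD2.

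UPF1 is the RNA helicase at the centre of nonsense-mediated mRNA decay (NMD), which removes transcripts on which a ribosome terminates well upstream of an exon junction. A snoRNA host gene is transcribed and spliced like an mRNA, and the snoRNAs are trimmed out of its introns. Box C/D snoRNAs guide ribose methylation of rRNA and box H/ACA snoRNAs guide pseudouridylation, whereas the spliced exons of a noncoding host carry no long reading frame and are, for hosts such as *Gas5*, a known target of NMD when translated.

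The libraries held between 9732498 and 11006834 recovered reads, and values are given as normalised reads, reads scaled by the authors to an effective library size. The row of *Upf1* itself was not lower in the libraries labelled cKO (260, 203 and 259 normalised reads in Ctrl, 308, 283 and 300 in cKO, log2 fold change 0.31, limma adjusted p = 0.00696). Reads over the floxed exons are not separated from the rest of that row, so directions are those of the cKO-labelled libraries. *Cd79a*, the locus that carries Cre in the cKO mice, had 234, 215 and 213 normalised reads in Ctrl and 71.6, 75.2 and 73.0 in cKO libraries, without overlap (log2 fold change -1.58, limma adjusted p = 1.24e-11). The B cell progenitor markers *Ebf1*, *Pax5*, *Igll1*, *Cd79b* and *Spn* were detected in every library and did not pass the test, at 363 to 478 normalised reads for *Ebf1* and 285 to 324 for *Igll1*. Other progenitor markers moved both ways: *Kit* (log2 fold change 2.07), *Dntt* (1.64), *Rag1* (1.55) and *Vpreb1* (0.40) were higher in cKO libraries, and besides *Cd79a* also *Ptprc* (-0.84) and *Il7r* (-0.61) were lower. Of 8 neutrophil markers, 5 were higher in cKO libraries, and their sum was 144, 64.4 and 39.8 in Ctrl 1, 2 and 3 against 372 to 510 in cKO. Elastase (*Elane*) was low but also higher in cKO, at 0.159 to 0.859 in Ctrl and 1.49 to 2.23 in cKO libraries (log2 fold change 0.94, limma adjusted p = 0.00224). Of 7 markers of later B cells, 2 were higher and 3 lower, with sums of 247 to 252 in Ctrl and 62.6 to 72.3 in cKO libraries and a median log2 fold change of -0.14. Most of that sum was *Cd22* (205 to 209 in Ctrl, 22.4 to 34.9 in cKO), while *Ighd* and *Cr2* were higher in cKO. In such bulk samples fewer cells of a type and less RNA per cell cannot be told apart. The part of the neutrophil and later B cell RNA in the host values was not tested. The neutrophil sum, the later B cell sum and the host values differed between the same groups, so they cannot be told apart here.

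The annotation of the 10 host genes (GENCODE M21, GRCm38) held 34 snoRNA loci, and all 34 lay in introns of the host model with the most exons. *Gas5* held 9, *Snhg1* held 8, *Snhg12* held 4, *Zfas1* and *2410006H16Rik* held 3 each, *Snhg3* and *Snhg5* held 2 each, and *Snhg6*, *Snhg8* and *Snhg15* held 1 each. The sequences below were taken from the GENCODE M21 transcripts and written from 5′ to 3′ in the letters of DNA. They are from some of the host snoRNAs that were measured as rows of their own. The C box (TGATGA) and the D box (CTGA), or the ACA box, are in capitals. *Snora16a*, *Snora44*, *Snora61* and *Snord22* were measured too but are not shown, and the search described below found no box pair in *Snora44* and *Snord22*.
Snord12 of *Zfas1*, chr2:167065276-167065365, plus strand: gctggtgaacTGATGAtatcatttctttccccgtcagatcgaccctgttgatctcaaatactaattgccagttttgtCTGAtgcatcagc
Snord49a of *2410006H16Rik*, chr11:62603450-62603521, plus strand: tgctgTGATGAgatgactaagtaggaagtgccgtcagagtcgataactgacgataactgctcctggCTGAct
Snord49b of *2410006H16Rik*, chr11:62603079-62603150, plus strand: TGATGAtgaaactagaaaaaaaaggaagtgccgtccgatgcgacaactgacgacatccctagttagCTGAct
Snord65 of *2410006H16Rik*, chr11:62604515-62604586, plus strand: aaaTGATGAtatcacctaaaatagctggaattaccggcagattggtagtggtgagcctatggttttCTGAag
Snord47 of *Gas5*, chr1:161038082-161038158, plus strand: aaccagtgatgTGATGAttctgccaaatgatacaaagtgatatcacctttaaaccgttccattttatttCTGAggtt
Snord87 of *Snhg6*, chr1:9942463-9942549, minus strand: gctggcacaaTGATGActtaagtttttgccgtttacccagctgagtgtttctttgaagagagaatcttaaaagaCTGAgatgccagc
Snord99 of *Snhg12*, chr4:132310691-132310764, plus strand: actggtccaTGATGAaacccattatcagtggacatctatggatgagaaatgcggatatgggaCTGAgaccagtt
Snora73a of *Snhg3*, chr4:132352775-132352979, minus strand: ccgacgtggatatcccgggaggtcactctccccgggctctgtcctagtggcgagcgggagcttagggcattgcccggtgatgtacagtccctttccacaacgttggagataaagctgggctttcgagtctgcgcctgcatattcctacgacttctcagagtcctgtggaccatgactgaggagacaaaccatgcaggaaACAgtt
A search of the RNA strand for the C box letters in the first 22 bases and the D box letters in the last 18 found both in 23 of the 34 loci (67.6%), against 312 of all 1558 annotated snoRNAs and scaRNAs (20.0%), a set that includes many predicted copies. A further 6 of the 34, of over 100 bases, held ACA in the last 8 bases and the hinge letters ANANNA near the middle, and 5 held neither pair. *Snord49a* and *Snord49b*, in separate introns of *2410006H16Rik*, were both 72 bases long and shared an unbroken run of 13 bases (aggaagtgccgtc). The pair in *Snhg5* below is shown because its members, at chr9:88521529-88521600 and chr9:88521797-88521868 on the minus strand, differed at 1 of 72 bases, and neither had a row of its own.
Snord50a of *Snhg5*: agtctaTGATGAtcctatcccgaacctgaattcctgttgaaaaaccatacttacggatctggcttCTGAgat
Snord50b of *Snhg5*: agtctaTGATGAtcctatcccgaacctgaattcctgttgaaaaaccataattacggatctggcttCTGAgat

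Most of the loci lay at nearly the same distance before the next exon of their host. In 29 of the 34 the end of the snoRNA was between 60 and 90 bases from that exon, with a median of 75 bases over all 34. The exceptions were *Snord80* (313 bases) and *Gm26224* (278 bases) in *Gas5*, *Gm23246* (121 bases) in *Snhg1*, *Snora16a* (237 bases) in *Snhg12* and *Snora9* (1595 bases) in *Snhg15*.

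**Figure D1:**
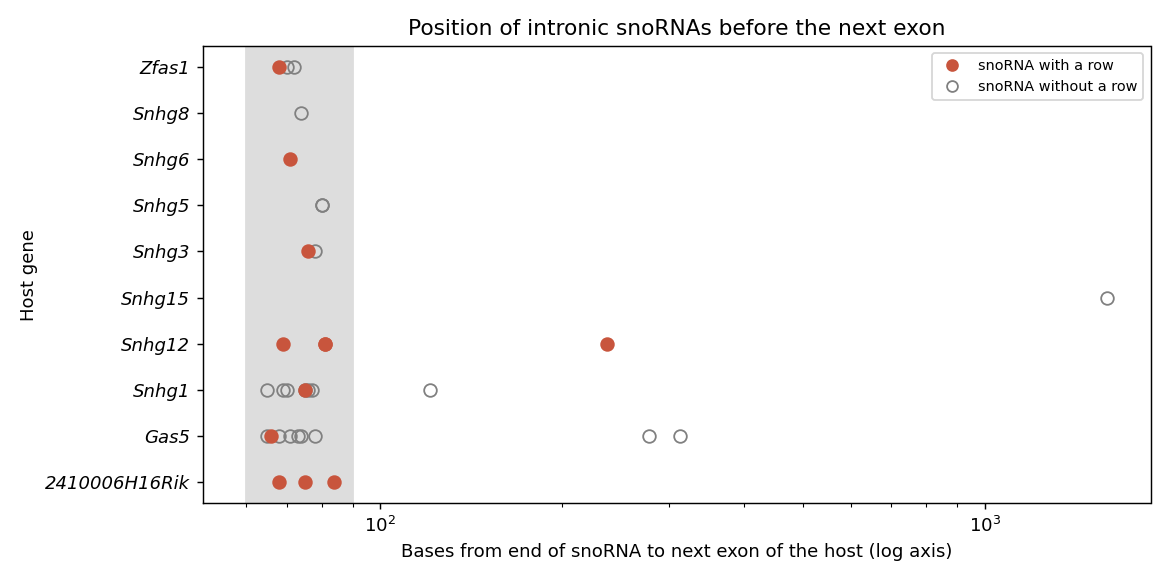
Distance in bases (log axis) from the end of each of the 34 intronic snoRNA loci to the next exon of its host gene, with 1 line per host. Filled points are the 12 loci with a row of their own in the table, open points those without, some points coincide, and the grey band spans 60 to 90 bases, which holds 29 of the loci.

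The reading frames of the spliced host transcripts were not used in choosing the genes. In the models of all 10 hosts the reading frame that opens at the first ATG ended more than 50 bases upstream of the last exon junction, the arrangement usually linked to NMD. The same held for 373 of 492 other lncRNA rows with a GENCODE model (75.8%). In *Snhg8* that first frame was only 1 codon long. For the longest reading frame the arrangement held in 6 of 10 hosts and in 28.0% of the other lncRNA rows. It did not hold in *Zfas1*, *2410006H16Rik*, *Snhg5* and *Snhg15*, and it held in *Snhg8*, the host with the smallest difference below. The longest frames of the hosts were short, from 35 codons in *Snhg8* to 79 in *Zfas1*. The hosts had a median of 5 exons against 3 in the other lncRNA models, and a median length of 547 against 1440.5 bases. Whether any of these frames is translated in early LPre-B cells was not measured.

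The promoter windows are shown because the measured hosts were all higher in the same 3 libraries. RefSeq (GRCm38.p6) gave windows from 250 bases before to 50 bases after the start for 9 of the 10 genes. Below are the parts from 45 bases before to 25 after the start for 6 of them, read on the strand of the gene, with the TATA-like words (TATAAA and its variants TATATA and TATTTA) and any run of 6 or more pyrimidines that begins with C within 20 bases of the start in capitals.
Gas5 promoter, chr1:161035121-161035191, plus strand: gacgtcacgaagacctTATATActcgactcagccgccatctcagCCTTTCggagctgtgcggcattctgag
Snhg12 promoter, chr4:132308633-132308703, plus strand: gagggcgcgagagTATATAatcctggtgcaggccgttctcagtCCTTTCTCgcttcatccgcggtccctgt
Snhg8 promoter, chr3:123508311-123508381, minus strand: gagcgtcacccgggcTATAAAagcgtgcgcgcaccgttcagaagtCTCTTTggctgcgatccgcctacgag
Snhg5 promoter, chr9:88522872-88522942, minus strand: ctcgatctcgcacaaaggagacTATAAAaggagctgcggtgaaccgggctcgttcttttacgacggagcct
Snhg1 promoter, chr19:8723442-8723512, plus strand: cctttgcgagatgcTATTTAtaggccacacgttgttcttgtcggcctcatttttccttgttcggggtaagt
2410006H16Rik promoter, chr11:62602832-62602902, plus strand: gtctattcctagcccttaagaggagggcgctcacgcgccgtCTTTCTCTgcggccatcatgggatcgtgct
Such a pyrimidine run, as in the starts of genes for the translation machinery, stood in 4 of 9 hosts, in 34.8% of all 27025 genes with an entry and in 14 of 20 ribosomal protein genes that host snoRNAs. *Gas5* had a second, upstream start without it. One of the TATA-like words began between 45 and 15 bases before the start in 5 of 9 hosts, against 4.74% of all genes and 2.39% of 460 other lncRNA rows. The upstream start of *Gas5* lacked these words too, and a gene was counted if any of its starts matched. These words were searched for after the windows had been read, only the strand of the gene was searched, and a match marks letters and not a bound factor. *Snhg8*, with the smallest difference of the 9 hosts, and *Snhg12*, with one of the larger ones, both held both features.

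All 9 host rows were higher in the 3 cKO-labelled libraries than in any Ctrl library. Over all genes, 30.9% of rows were higher without overlap and 27.7% were called higher at a limma adjusted p below 0.05, and both shares are given for scale only because the hosts were chosen with this comparison in view. The median log2 fold change of the 9 hosts was 3.08, on the log2(value + 1) scale, beside 0.01 over all 13426 rows. Every host had at least 90 reads in every library, so none of the 9 entered the table through the cKO group alone.

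*Zfas1* (chr2:167062934-167065862), the noncoding RNA transcribed away from the start of *Znfx1*, had 60.9, 76.6 and 71.3 normalised reads in Ctrl libraries and 1736, 1549 and 1814 in cKO libraries. Its mean was 24.4 times higher in cKO, a log2 fold change of 4.59 (SE 0.087), and no other row of the table had a higher estimate. *2410006H16Rik* (chr11:62602877-62604806), host of *Snord49a*, *Snord49b* and *Snord65*, had 33.4, 31.3 and 38.9 normalised reads in Ctrl and 611, 553 and 633 in cKO libraries. The cKO mean was 17.3 times the Ctrl mean, with a log2 fold change of 4.08 (SE 0.088). The lowest cKO library was 20.2 times the highest Ctrl library in *Zfas1* and 14.2 times in *2410006H16Rik*.

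*Snhg12* (chr4:132308678-132311024), host of 3 box H/ACA snoRNAs by name and of *Snord99*, had 20.2, 28.9 and 32.8 normalised reads in Ctrl and 341, 411 and 338 in cKO libraries, and the groups were far apart. Its log2 fold change was 3.70 (SE 0.163). *Snhg15* (chr11:6525591-6528760), host of *Snora9*, had 11.4, 15.1 and 13.6 normalised reads in Ctrl and 136, 165 and 146 in cKO libraries, a log2 fold change of 3.39 (SE 0.11). In both genes cKO 2 was the highest library and Ctrl 1 the lowest. *Snhg1* (chr19:8723487-8726326), with 8 intronic snoRNAs, had 59.2, 70.9 and 78.9 normalised reads in Ctrl and 605, 541 and 640 in cKO libraries, with no overlap. Its log2 fold change was 3.08 (SE 0.096), the middle one of the 9.

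*Snhg5* (chr9:88521052-88522897), host of the near-identical *Snord50a* and *Snord50b*, had 90.8, 128 and 131 normalised reads in Ctrl and 815, 839 and 850 in cKO libraries, a log2 fold change of 2.85 (SE 0.116). The cKO libraries of *Snhg5* were very close to each other. *Gas5* (chr1:161034601-161038539), first described as a transcript that accumulates in growth-arrested cells, had 268, 307 and 402 normalised reads in Ctrl and 1540, 1752 and 1573 in cKO libraries, a log2 fold change of 2.33 (SE 0.13). The lowest cKO library of *Gas5* was above the highest Ctrl library although Ctrl 3 stood well above Ctrl 1. *Snhg6* (chr1:9942025-9944118), host of *Snord87*, had 9.61, 12.2 and 15.9 normalised reads in Ctrl and 64.7, 61.4 and 65.0 in cKO libraries, a log2 fold change of 2.28 (SE 0.139). It was the least abundant host in the cKO libraries.

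*Snhg8* (chr3:123507552-123508336), host of *Snora24*, stood apart from the other hosts by the size of its difference. It had 37.8, 43.9 and 55.1 normalised reads in Ctrl and 87.8, 110 and 92.2 in cKO libraries, and the cKO mean was 2.12 times the Ctrl mean. The log2 fold change was 1.08 (SE 0.122), beside 2.28 to 4.59 in the other 8 hosts. With 3 exons its model had the fewest exons of the 10.

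**Figure D2:**
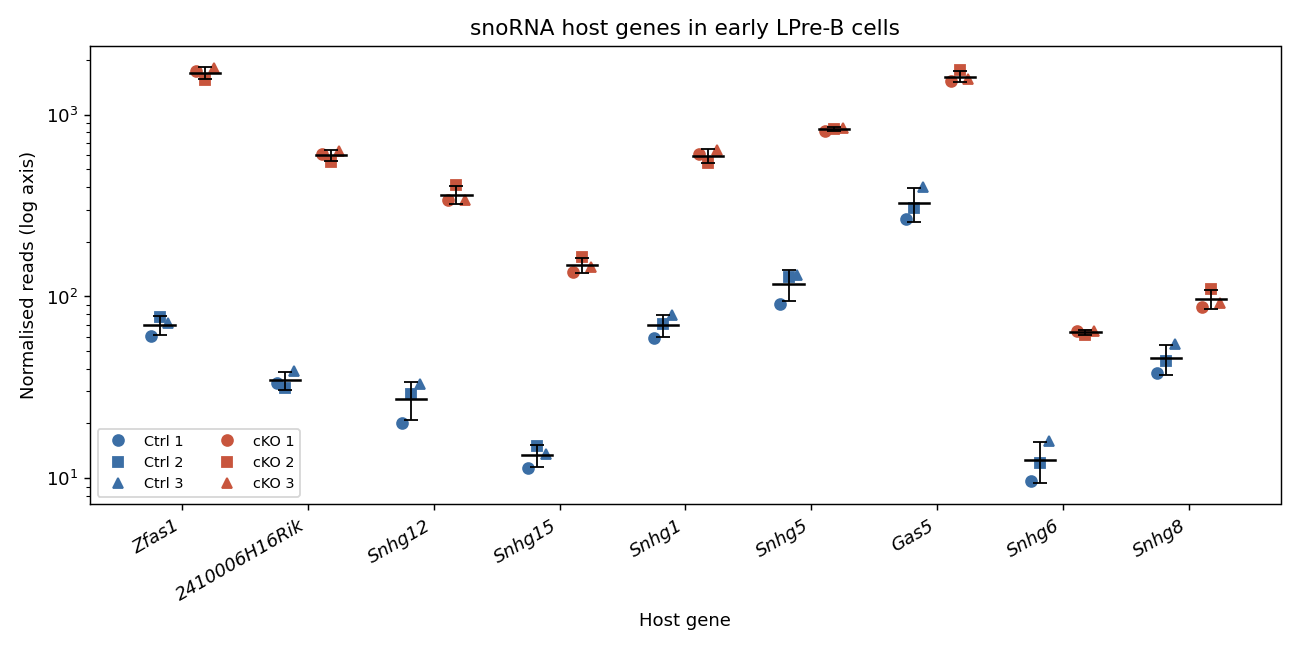
Normalised reads (log axis) of the 9 host genes with a row in each of the 3 Ctrl (blue) and 3 cKO (red) libraries, ordered by log2 fold change, with black lines for the mean and bars for the SD. In each gene the lowest cKO library is above the highest Ctrl library, and the gap narrows from *Zfas1* (4.59) to *Snhg8* (1.08).

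Within the Ctrl group most hosts were lowest in the same library. Of the 9 hosts, 8 were lowest in Ctrl 1 and 7 were highest in Ctrl 3, and the sum of the 9 was 591, 713 and 840 normalised reads in Ctrl 1, 2 and 3. In cKO libraries the sum was 5936, 5982 and 6150. The coefficient of variation between libraries ran from 11.4% to 25.3% in Ctrl and from 2.11% to 12.0% in cKO libraries. As a share of all recovered reads the 9 hosts took 0.0549%, 0.0641% and 0.0813% in Ctrl and 0.625%, 0.649% and 0.666% in cKO libraries, and the mean share was 9.69 times higher in cKO.

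The order of the hosts changed between the groups when levels were set per kilobase of exons of the chosen model. In Ctrl libraries *Gas5* was highest (648 ± 138 normalised reads per kb, SD, n = 3), with no overlap with *Snhg5* (149 ± 28.7). *Snhg5*, *Snhg1* (115 ± 16.3), *Snhg8* (102 ± 19.6), *Zfas1* (94.4 ± 10.8) and *2410006H16Rik* (74.7 ± 8.49) followed, and each of these overlapped its neighbour in this order. *Snhg12* (45.1 ± 10.6) lay below them without overlap, its lowest library just within the range of *Snhg6* (26.6 ± 6.72), which overlapped *Snhg15* (22.6 ± 3.13). In cKO libraries *Gas5* (3231 ± 228) was again highest, but *Zfas1* (2303 ± 184) and *2410006H16Rik* (1296 ± 89.6) came next, each apart from its neighbours. *Snhg5* (1069 ± 22.6) and *Snhg1* (984 ± 82.3) overlapped, and *Snhg12* (599 ± 68.2) lay below. *Snhg15* (251 ± 24.9) and *Snhg8* (215 ± 25.8) overlapped above *Snhg6* (135 ± 4.16). Which isoforms were present was not measured, and the values per length depend on the model used.

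**Figure D3:**
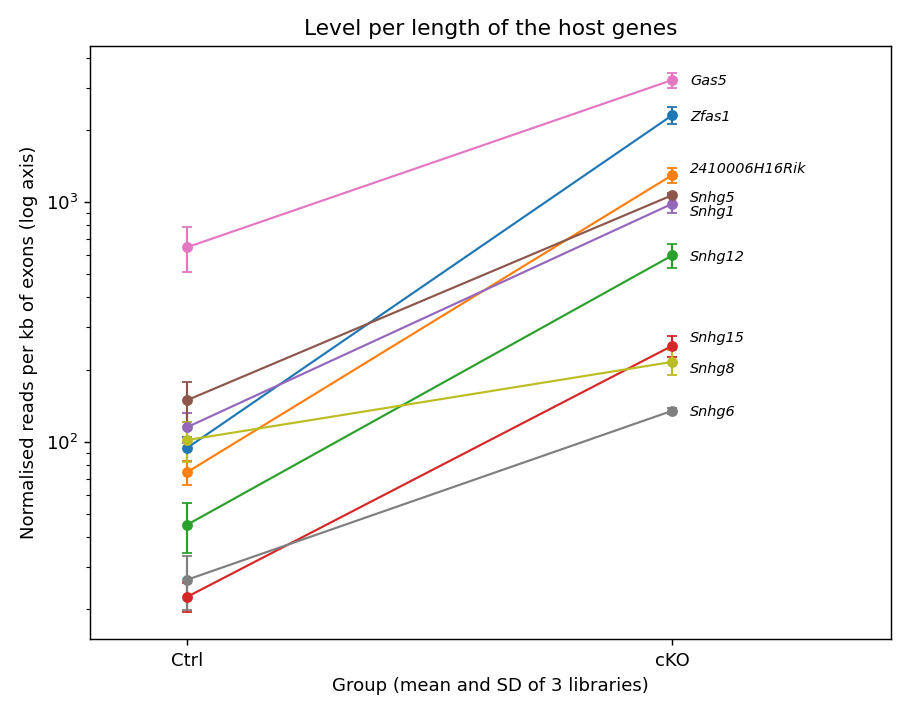
Normalised reads per kilobase of exons (log axis) of the 9 hosts in Ctrl and cKO libraries, as the mean with the SD of 3 libraries. *Gas5* is highest in both groups (648 and 3231), *Zfas1* moves from 94.4 to 2303, and the line of *Snhg8* is the flattest (102 to 215).

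None of the measured snoRNAs inside the hosts was called higher. Of the 34 loci, 12 had a row of their own, and these rows were not used in choosing the hosts. With limma, 5 of the 12 were lower in cKO libraries at an adjusted p below 0.05. Of all rows 25.0% were called lower, and of the snoRNA rows outside the hosts 8.43%. Of the 12, 0 were higher, beside 27.7% of all rows and 2.41% of the snoRNA rows outside the hosts. The count of 0 also held at an unadjusted p below 0.05 and with edgeR or DESeq2 on the recovered reads. In 7 of the 12 the cKO libraries all lay below the Ctrl libraries, beside 28.0% of all rows. The median log2 fold change of the 12 was -0.49. These rows were thin, with 7 to 692 reads per library, and they were measured in rRNA-depleted libraries that were not made for small RNA, so mature snoRNA and unspliced or partly degraded host RNA cannot be told apart in them.

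*Snora73a*, a box H/ACA snoRNA known for its part in small subunit rRNA processing and the one measured product of *Snhg3*, was by far the most abundant of the 12. It had 61.7, 70.0 and 54.8 normalised reads in Ctrl and 40.9, 41.0 and 47.5 in cKO libraries, without overlap, a log2 fold change of -0.51 (SE 0.104, limma adjusted p = 0.000436). The locus is also annotated within *Rcc1*, which encodes the exchange factor for Ran, overlaps *Snhg3* on the same strand and was slightly higher in cKO libraries (log2 fold change 0.22, limma adjusted p = 0.0297), so *Rcc1* counts among the coding hosts below. *Snora44* of *Snhg12* had 4.41, 3.79 and 3.33 normalised reads in Ctrl and 0.829, 1.85 and 2.32 in cKO libraries, a log2 fold change of -0.90 (SE 0.235, limma adjusted p = 0.00351). *Snord87* of *Snhg6* had 1.97, 1.97 and 2.83 normalised reads in Ctrl and 0.732, 1.22 and 0.885 in cKO libraries, a log2 fold change of -0.74 (SE 0.216, limma adjusted p = 0.00766). In these 3 snoRNAs each Ctrl library was above each cKO library, and the call held under all 15 alternatives. The added pseudocount of 1 shrinks such thin rows: with a pseudocount of 0.1, voom, edgeR or DESeq2 the log2 fold change of *Snord87* was between -1.31 and -1.18, and the Ctrl mean was 2.39 times the cKO mean.

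*Snord65* of *2410006H16Rik* had 2.82, 3.59 and 4.02 normalised reads in Ctrl and 1.51, 1.67 and 2.66 in cKO libraries (log2 fold change -0.61, SE 0.219, limma adjusted p = 0.0245). *Snord12* of *Zfas1* had 4.51, 6.01 and 8.09 normalised reads in Ctrl and 3.46, 4.01 and 4.17 in cKO libraries (log2 fold change -0.53, SE 0.207, limma adjusted p = 0.0369). In both rows the groups were apart, by a small margin. The call of *Snord65* was lost without Ctrl 2, Ctrl 3, cKO 1 or cKO 2, with DESeq2 and with scaling to total reads (limma or DESeq2 adjusted p from 0.0592 to 0.0992), and that of *Snord12* without any library other than Ctrl 1 and with scaling to total reads, with a highest limma adjusted p of 0.204 without Ctrl 3.

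The other 7 rows did not pass the test, although *Snord49a* was called lower without the intensity trend (limma adjusted p = 0.0433) and with median centring (0.035), and *Snora16a* with median centring (0.0242) and without Ctrl 1 (0.0208), so that 7 of the 12 rows were lower with median centring. Their log2 fold changes were -0.53 for *Snord49b* and -0.41 for *Snord49a*, both in *2410006H16Rik*, -0.47 for *Snora16a*, -0.38 for *Snora61* and -0.32 for *Snord99*, all in *Snhg12*, -0.05 for *Snord22* of *Snhg1* and -0.01 for *Snord47* of *Gas5*. The last 2 changed sign under several alternatives, and *Snord49b* and *Snord99* reached -0.92 and -0.53 with voom. For *Gas5*, with a log2 fold change of 2.33 in the host row, *Snord47* had 2.18, 1.67 and 4.12 normalised reads in Ctrl and 2.39, 2.57 and 2.49 in cKO libraries, with the cKO libraries inside the Ctrl range. Summed over the 12 rows, the values were 96.4, 111 and 105 in Ctrl and 66.2, 71.6 and 76.0 in cKO libraries, most of it *Snora73a*.

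**Figure D4:**
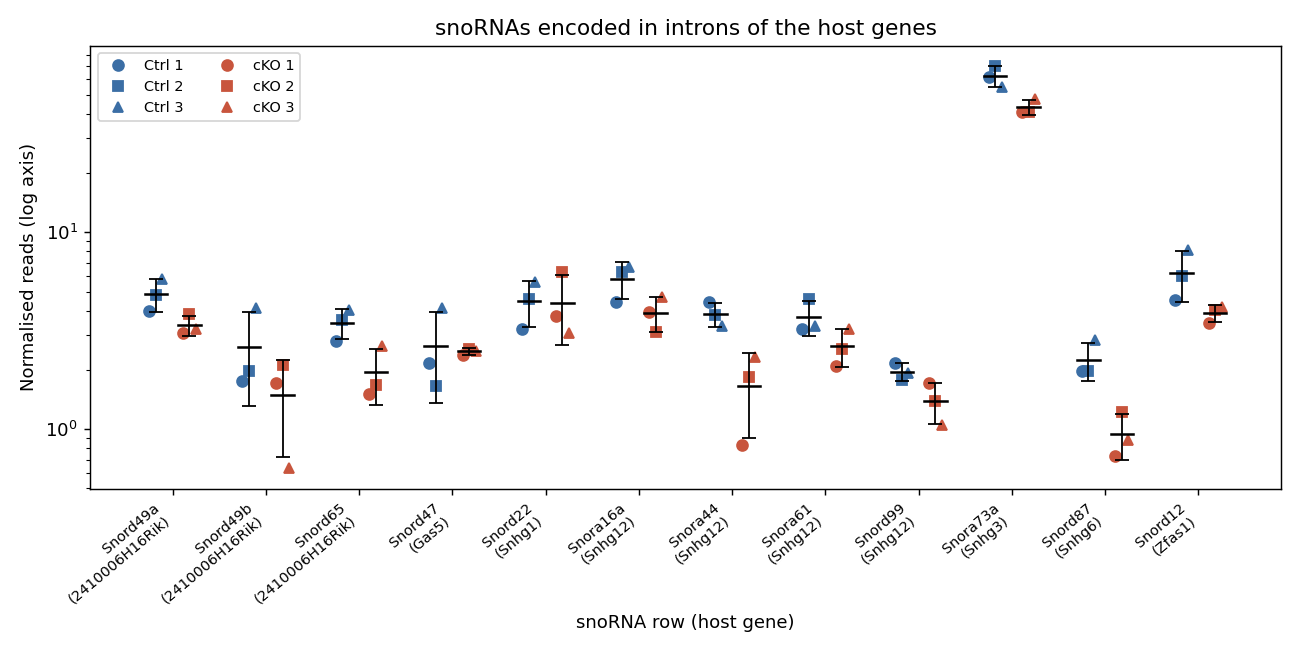
Normalised reads (log axis) of the 12 snoRNA rows inside the host genes in each Ctrl (blue) and cKO (red) library, with the host in brackets, lines for the mean and bars for the SD. *Snora73a* is far above the rest, 7 of the 12 have all cKO libraries below all Ctrl libraries, and none has them all above.

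Across the table, 95 rows were snoRNAs or small Cajal body RNAs (scaRNAs, which guide modification of spliceosomal RNAs). Of these, 2 were higher (2.11%) and 12 lower (12.6%) in cKO libraries, both below the 27.7% and 25.0% of all rows, with a median log2 fold change of -0.25. They held a median of 19 reads against 218 over all rows, and low counts make calls less likely in either direction. Outside the 10 hosts, *Snora65* (log2 fold change 1.02, limma adjusted p = 0.000278) and *Snord55* (0.88, limma adjusted p = 0.0124) rose, while *Scarna9* (-0.80), *Scarna2* (-0.69) and *Snord1b* (-0.65) fell. Scaling to total reads in place of the authors' effective sizes moved the median of all rows from 0.01 to 0.19, changed the calls over all rows from 3725 higher and 3351 lower to 5169 and 1936, and left 5 snoRNA rows higher and 5 lower. Centring on the median of all rows gave 2992 higher and 4355 lower over all rows and 23 snoRNA rows lower, and 19 snoRNA rows were lower without the intensity trend and 7 without cKO 1. In the hosts' own snoRNAs 3 of 12 were still called lower with total read scaling, which moved the median host log2 fold change from 3.08 to 3.29.

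Of 17 other noncoding snoRNA hosts with a row, 7 rose and 4 fell, beside 27.7% and 25.0% of all rows, with a median log2 fold change of 0.21. The 4 falls were 2 without the intensity trend, with scaling to total reads or without cKO 3. *Snhg16* rose from 17.0, 25.4 and 20.7 normalised reads in Ctrl to 264, 275 and 282 in cKO libraries (log2 fold change 3.66, limma adjusted p = 2.36e-14). *1110038B12Rik* (2.76) and *Epb41l4aos* (2.71) rose as well, and so did *Snhg17* (1.34) and *9330159M07Rik* (0.75). *Dancr* had 4.83, 7.63 and 7.50 normalised reads in Ctrl and 2.10, 5.82 and 2.32 in cKO libraries and fell by 0.87 on the log2 scale (limma adjusted p = 0.0138). The groups of *Dancr* overlapped, through cKO 2. Only 7 of the 17 hosted a snoRNA with an assigned Snord, Snora or Scarna name, and of these 2 rose and 1 fell, a restriction chosen after the data had been seen.

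Among protein-coding hosts of snoRNAs the ribosomal protein genes were mostly lower. Of 30 ribosomal protein genes that host a snoRNA, 24 fell and 2 rose, beside 25.0% and 27.7% of all rows, with a median log2 fold change of -0.45. *Rpl37* fell by 1.12, *Rps2* by 0.95 and *Rps13* by 0.72 on the log2 scale, while *Rpl3* (0.33) and *Rpl12* (0.28) rose. With scaling to total reads 15 fell, and near-identical copies of ribosomal protein genes make their counts uncertain. Of the other 188 coding hosts 55 were higher (29.3%) and 58 lower (30.9%), near the 27.7% and 25.0% of all rows, with a median of 0.03. The largest rises were in *Alkbh1* (1.86), which encodes a dioxygenase, *Trpm2* (1.49), a cation channel, and *Slc49a4* (1.44), and the largest falls in *Map2* (-2.06), *Ell2* (-1.11), an elongation factor, and *Phb2* (-0.93), a prohibitin. With scaling to total reads, 88 of the 188 were higher and 32 lower, beside 5169 and 1936 of all 13426 rows.

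**Figure D5:**
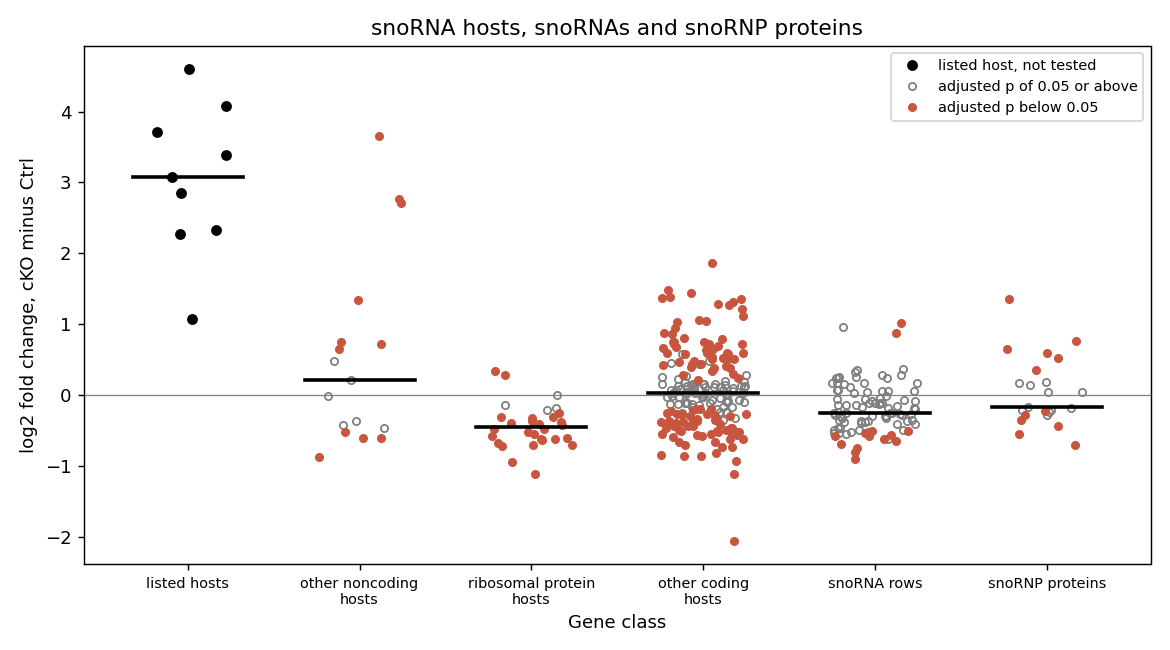
log2 fold change (cKO minus Ctrl, log2(value + 1) scale) of each row by class, with black lines for the median and filled red points for rows with a limma adjusted p below 0.05. The 9 listed hosts (black, not tested) have a median of 3.08, against 0.21 in other noncoding hosts, -0.45 in ribosomal protein hosts, 0.03 in other coding hosts, -0.25 in snoRNA rows and -0.17 in snoRNP proteins.

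Genes that start beside a host on the other strand were compared for their levels beside the host's. *Slc3a2*, which encodes the heavy chain of the CD98 amino acid transporters and starts 106 bases from *Snhg1*, had 76.8, 95.2 and 79.0 normalised reads in Ctrl and 113, 119 and 108 in cKO libraries. It rose, without overlap, with a log2 fold change of 0.44 (SE 0.091, limma adjusted p = 0.000504), beside 3.08 in *Snhg1*. *Znfx1*, a helicase gene that starts 81 bases from *Zfas1*, had 37.1, 43.8 and 44.1 normalised reads in Ctrl and 44.2, 45.2 and 43.4 in cKO libraries, with overlap (log2 fold change 0.09, SE 0.099, limma adjusted p = 0.477). *Zbtb37*, a zinc finger gene that starts 427 bases from *Gas5*, had 25.8, 23.9 and 22.5 in Ctrl and 23.6, 22.4 and 18.6 in cKO libraries (log2 fold change -0.16, SE 0.124, limma adjusted p = 0.298). *Znfx1* was called higher only with scaling to total reads (log2 fold change 0.29, limma adjusted p = 0.0267). Counting ignored strand, and *Gas5* overlaps *Zbtb37*, *Zfas1* overlaps *Znfx1* and *Snhg6* overlaps *Mcmdc2* in the annotation, so reads in the shared parts cannot be assigned with certainty.

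All 23 genes of the list of snoRNP core and assembly proteins had rows, and 6 rose and 6 fell (26.1% each), near the 27.7% and 25.0% of all rows. *Nop56* (1.35) and *Nop58* (0.64), both of the box C/D core, and *Rpap3* (0.76), of the R2TP assembly complex, rose most. *Snu13* (-0.70), the box C/D protein that first binds the RNA, *Nop10* (-0.55), of the box H/ACA core, and *Nolc1* (-0.43), a nucleolar and Cajal body chaperone, fell most. The methyltransferase *Fbl* (-0.21, limma adjusted p = 0.18) and the pseudouridine synthase *Dkc1* (-0.17, limma adjusted p = 0.239) did not pass the test. *Nop56*, *Nop58* and *Dkc1* are themselves snoRNA hosts and also count among the other coding hosts above. The number that fell was 2 with scaling to total reads and 3 without cKO 2.

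The 5 rows outside the list whose levels over the 6 libraries, centred on the log2 scale, lay closest to the mean profile of the 9 hosts were *Galnt6*, *Drc7*, *Snx14*, *Pvt1* and *Sirt3*. *Pvt1*, a noncoding RNA beside *Myc*, had 4.20, 6.52 and 6.21 normalised reads in Ctrl and 67.6, 57.3 and 64.1 in cKO libraries. *Sirt3*, a mitochondrial deacetylase, had 14.1, 12.8 and 13.8 in Ctrl and 96.7, 92.8 and 108 in cKO libraries. This ranking is a description over 6 libraries, and it is set mostly by the difference between the groups.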

How the data were processed

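Ribosomal RNA was depleted, libraries were made with a directional kit, and single-end reads were, per the labels and methods, trimmed with cutadapt 4.0, aligned to mm10 with HISAT2 without strand and counted with featureCounts 2.0.1. Per gene (Entrez ID) and library, the file the authors deposited holds a linear normalised signal. Each value was a read count plus 0.5 over a scaled effective library size, and whole reads came back for 100% of values (within 0.01). Every row exceeded 0.5 in at least 3 libraries. RefSeq named 13008 of 13426 rows and GENCODE M21 another 3.

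Groups followed the labels. limma 3.58.1 (R 4.3.3) was run on log2(value + 1) with group alone in the model, an intensity trend, robust moderation and Benjamini-Hochberg adjustment over the whole table, and a row was called at an adjusted p below 0.05. Fold changes of low rows are understated on this scale. The fit was also run on simulated counts with few changed genes and a single fixed dispersion, which tests neither the scaling nor the spread here. The study's methods call its data points independent biological replicates, and the labels do not tie libraries to single mice. Intervals from reads would cover counting error only. Libraries of a group differed by more than sampling noise. The members and gene lists were chosen with earlier results of these data known. Named were *Upf1*, all members, divergent neighbours (starts within 1000 bases), snoRNA rows inside members, up to 6 other noncoding hosts, up to 3 rises and 3 falls per other class, and the 5 rows most like the members. *Rcc1*, *Fbl*, *Dkc1* and cell type markers were named besides. Coding hosts were genes whose span holds an annotated snoRNA on the same strand. The 17 other noncoding hosts came from that rule (9) or a hand-written list (8), and 2 of the latter, *Snhg4* (lower) and *Snhg7* (higher), had no annotated snoRNA in their span. The reading frame and promoter searches used GENCODE M21 and RefSeq. The alternatives tried were edgeR 4.0.16, DESeq2 1.42.0 and voom on the recovered reads, no intensity trend, a replicate block, median centring, scaling to total reads, a minimum mean log2 value of 1, a pseudocount of 0.1, and dropping each library in turn.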

Additional observations from a re-analysis of the deposited data

How the results depend on the processing

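The log2 fold changes of the 9 hosts stayed above 0 in all 135 values under the alternatives, from 0.95 to 4.80. The values that moved by more than the spread between replicates were those with total read scaling (*Zfas1* 4.80, *2410006H16Rik* 4.28, *Snhg15* 3.59, *Snhg1* 3.29), a setting that moved the median of all rows to 0.19. 
Replicate numbers 1 to 3 were shared by the labels of both groups, but same-numbered libraries did not deviate together (correlations 0.08, -0.03 and -0.02), so the numbers were not taken as a pairing. The column names give same-numbered libraries consecutive serial numbers, whose meaning is not stated in the sources used here. With the replicate block 3668 rows were higher and 3321 lower, and no call of a host snoRNA or neighbour changed.
Total read scaling gave 5169 rows higher and 1936 lower, with 2 other noncoding hosts and 15 ribosomal protein hosts lower. Other coding hosts were 88 higher and 32 lower, and snoRNA rows 5 higher and 5 lower. In the same setting 3 host snoRNAs and 2 snoRNP proteins were lower and 2 neighbours higher. It turned *Zbtb37* to 0.037, *Snord47* to 0.13 and *Snord22* to 0.11. Median centring gave 1 ribosomal protein host higher and 23 snoRNA rows lower, *Znfx1* at -0.020 and an all-row median of -0.10, which was -0.0047 with DESeq2 and -0.00011 with the minimum of 1. Without the trend, 2 other noncoding hosts, 19 snoRNA rows and 2 snoRNP proteins were lower and 1 ribosomal protein host and 1 snoRNA row higher. *Snord47* was at 0.0048 with voom and 0.0060 with the pseudocount of 0.1. Hosts of snoRNAs with assigned names only, a restriction added after seeing the data, left 2 other noncoding hosts higher and 1 lower, and 15 other coding hosts higher and 13 lower. The cause of these changes was not tested beyond the smaller number of genes in that restriction.
With each library left out in turn, snoRNA rows were lower in 7 to 13 cases and higher in 1 to 2, host snoRNAs lower in 3 to 6, snoRNP proteins lower in 3 to 9, other noncoding hosts lower in 2 to 4 and ribosomal protein hosts higher in 1 to 2, with the lowest counts of snoRNA rows without cKO 1, of snoRNP proteins without cKO 2, and of other noncoding and ribosomal protein hosts without cKO 3. *Snord47* ranged from -0.21 to 0.26 and *Snord22* from -0.29 to 0.12. Their low read counts limit what can be said of single snoRNAs.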
